A study of Oryctolagus cuniculus with 6 samples.

Results

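The genes described here encode integrins, laminins and other proteins of basement membranes, measured by RNA sequencing in rabbit retina with and without proliferative vitreoretinopathy (PVR). They were chosen by symbol: the integrin alpha and beta subunits, the laminin alpha, beta and gamma chains, the nidogens NID1 and NID2, perlecan (HSPG2), agrin (AGRN) and dystroglycan (DAG1). The rule found 41 of the 28788 genes in the files, made up of 17 integrin alpha subunits, 8 integrin beta subunits, 11 laminin chains and 5 other genes. One group comprised 3 normal retinas and the other 3 PVR retinas, all from Oryctolagus cuniculus. In the model, adult rabbits had the sclera punctured, some vitreous withdrawn, and platelet-rich plasma, the fraction of blood in which platelets are concentrated, injected into the vitreous cavity. The labels name no injection for the normal group, and the strain, the time of collection and whether each sample was a separate animal are not given in the sources used here. P-values therefore measure the spread between these samples, which may in part be technical. Whole retina was sequenced, so fewer cells of a type and less RNA per cell cannot be told apart.

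Integrins are cell surface receptors made of one alpha and one beta subunit. The pair sets the ligand: some pairs bind laminin, some collagen, some fibronectin and other proteins with an RGD motif, and some bind partners on other cells. Laminins are trimers of one alpha, one beta and one gamma chain that form the sheet on which a basement membrane is built, while nidogens, perlecan and agrin tie this sheet to collagen IV and to cells. In the eye, such membranes line the vitreal face of the retina beneath the end feet of Mueller glia, surround the retinal vessels, underlie the pigment epithelium in Bruch's membrane, and form the lens capsule. PVR is the growth of contractile membranes of glia, pigment epithelial cells, fibroblast-like cells and leukocytes on the retina, and integrins carry the pull of these cells on matrix.

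Libraries held between 31904593 and 43035080 counted reads. Between genes, levels were compared in FPKM, read counts scaled by gene length and library total. Between samples, levels were compared in normalised CPM, read counts scaled by library total after TMM correction. The photoreceptor gene SAG was abundant in all 6 libraries, with 3060.3, 2912 and 3873 normalised CPM in normal and 3098, 2799.9 and 3308 in PVR retinas. Of 8 photoreceptor markers tested, none passed an adjusted p of 0.05 in edgeR. At an unadjusted p under 0.05, 4 were lower, against 9.94% of all genes tested. All 8 had fitted values below 0, with a median log2 fold change of -0.29. Their summed level was 40242.5 to 47640.9 normalised CPM in normal and 28784.5 to 39466.5 in PVR retinas, without overlap. Of 8 oligodendrocyte markers, MOBP, MAG and ERMN fell at an adjusted p under 0.05 and all 8 were lower at an unadjusted p under 0.05, with a median log2 fold change of -3.06 and a summed level of 247.6 to 1204 normalised CPM in normal and 134.5 to 153.6 in PVR retinas. The part of both cell types in the values that follow was not tested. Normal replicate 2 stood apart: 5 crystallin genes of the lens took 2.89% of its counts, against 0.00143% and 0.00110% in the other normal libraries and 0.0242% to 0.0291% in the PVR libraries, which thus also held more of them than those normal libraries. It was the highest of the 3 normal samples for 20 of the 41 genes, normal replicate 3 for 14 and normal replicate 1 for 7. The share over all genes is not given here. Values without normal replicate 2 are given for the 10 genes whose log2 fold change then moved by more than 0.2. For COL1A1, a fibroblast collagen, the normal samples had 12.3, 5.76 and 13.3 normalised CPM and the PVR samples 55.6, 5.65 and 103, so that PVR replicate 2 lay just below the normal range and the other PVR samples far above it.

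Among the integrin, laminin and basement membrane genes, ITGA4 and LAMA2 rose in PVR and no gene fell, at an adjusted p under 0.05 in edgeR's quasi-likelihood test. ITGA4 rose 1.92-fold and LAMA2 1.38-fold, so neither passed the fold threshold of the study, a log2 fold change of 1, which 0.690% of all genes passed upward and 0.316% downward together with the adjusted p. Of the 41 genes, 38 passed the filter on low counts, and ITGAD and ITGB6 were among those that did not. Over all 18697 genes tested, 1.09% were higher and 0.615% were lower at this threshold. At an unadjusted p under 0.05, 11 of the 38 were higher, against 11.3% of all genes tested, and 5 were lower, against 9.94%. DESeq2, the tool named in the study's methods, tested 39 of the 41 genes. With it, 5 were higher at an adjusted p under 0.05 (ITGA4, LAMA2, ITGB8, ITGAM and ITGB2, against 5.43% of all genes it tested), and 1 was lower (ITGA1, against 3.33%). The median log2 fold change of the 38 was 0.18, with 21 fitted values above and 17 below 0, and that of all genes tested was -0.0088. In normalised CPM, the 3 PVR samples lay above the 3 normal samples for 8 of the 38 genes, against 13.4% of all genes tested, and below them for 4, against 14.6%. In FPKM, which is scaled by the total count alone, these numbers were 13, against 17.0%, and 4, against 9.69%. The plot of fitted changes shows their sizes with standard errors (SE).

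**Figure D1:**
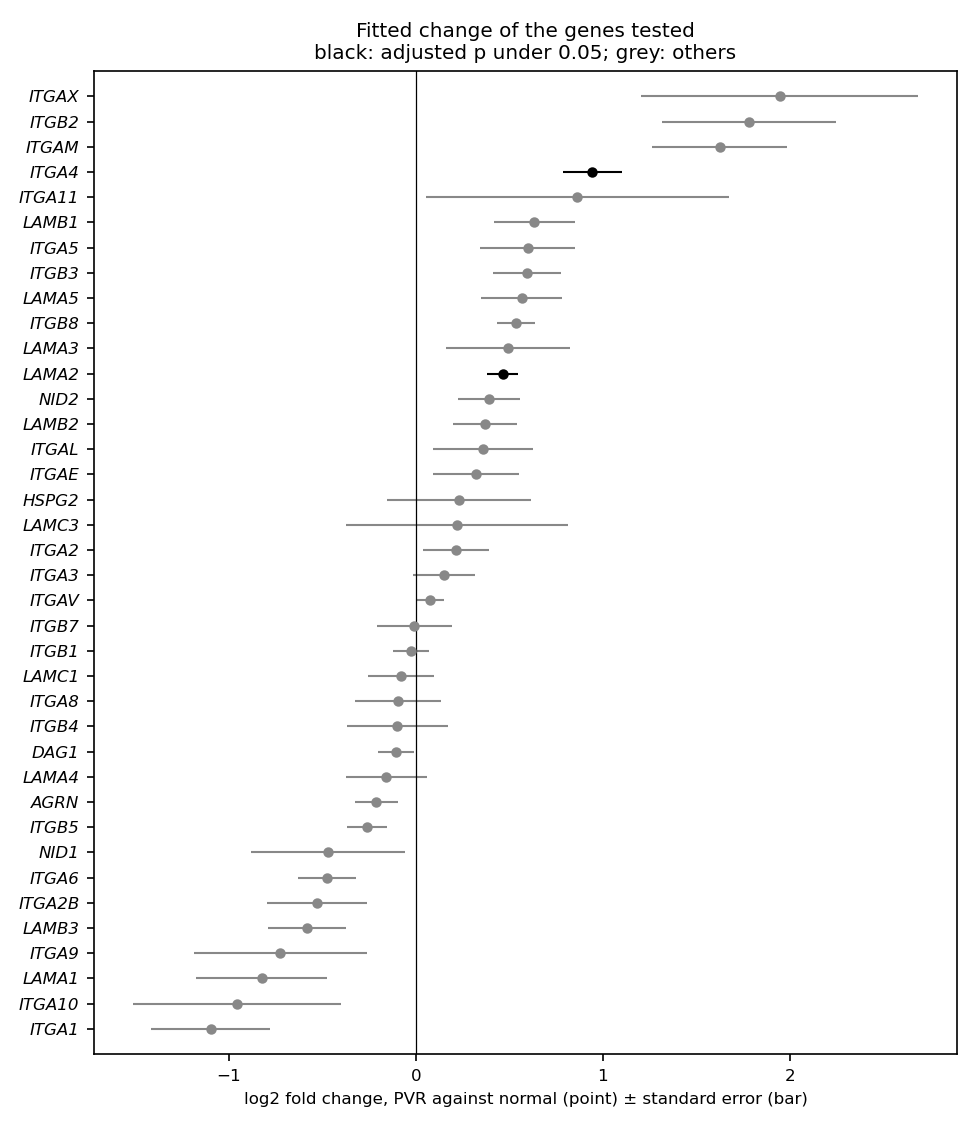
Fitted log2 fold change of PVR against normal (horizontal axis, point) with its standard error (bar) for each of the 38 genes tested, 3 samples a group. Values run from -1.10 for ITGA1 to 1.94 for ITGAX, and ITGA4 and LAMA2, in black, are those with an adjusted p under 0.05.

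By FPKM, a few subunits made up most of each family. ITGB5, ITGB1 and ITGB8 were the most abundant beta subunits, with means over the 6 samples of 53.0, 40.5 and 20.7 FPKM, and ITGB7, the next, had 1.66 FPKM. ITGAV, the alpha subunit that pairs with all 3 of them, had 19.3 FPKM and stood above ITGA6 at 8.33 FPKM and ITGA4 at 5.30 FPKM. Among laminins, LAMA2 (9.16 FPKM), LAMB2 (10.003 FPKM) and LAMC1 (6.20 FPKM) led the alpha, beta and gamma chains. DAG1 was the most abundant of the other basement membrane genes, with a level of 19.8 FPKM. ITGAD and ITGB6 were among the least abundant genes, at 0.0170 and 0.0421 FPKM.

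**Figure D2:**
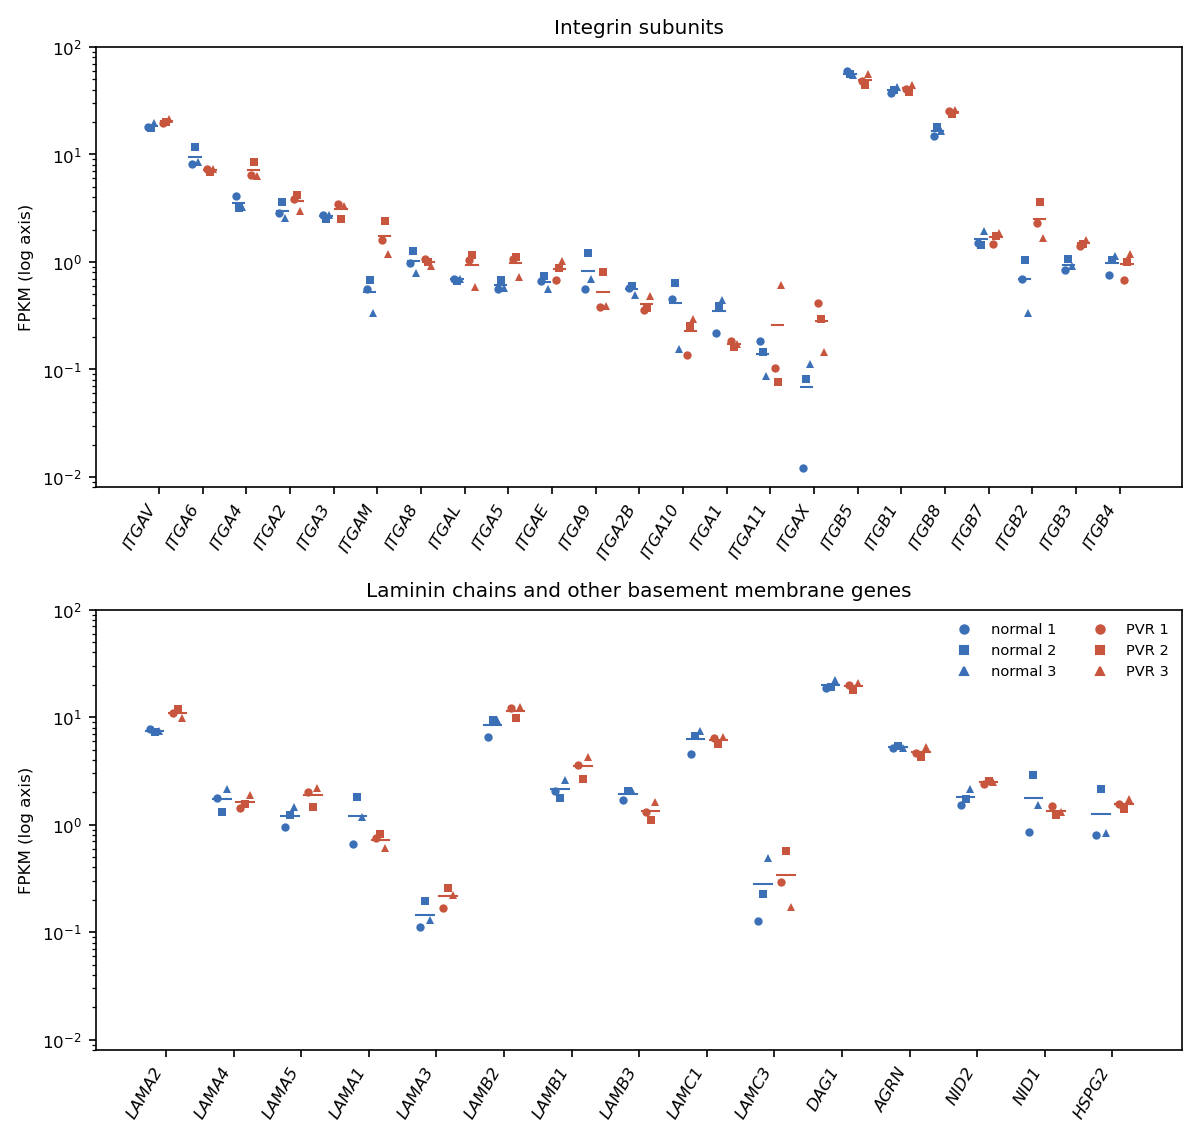
FPKM on a log axis of the 38 genes tested, integrin subunits in the upper panel and laminin chains and other basement membrane genes in the lower, in the 3 normal (blue) and 3 PVR (red) samples, ordered by mean FPKM within each class. Horizontal dashes are group means. The beta subunits reach 59.7 FPKM in ITGB5, and LAMA2 leads the laminin alpha chains in both groups.

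ITGA4 encodes the alpha 4 subunit, which pairs with beta 1 or beta 7 and binds VCAM1 and fibronectin, and is best known from leukocytes. Its level was 21.7, 17.3 and 17.1 normalised CPM in normal retinas and 32.7, 42.6 and 32.4 in PVR retinas. The groups did not overlap, and PVR replicate 2 was the highest. The log2 fold change was 0.94 (SE 0.16, adjusted p = 0.0403 from edgeR). The adjusted p was 5.64e-06 with DESeq2. Leaving out PVR replicate 3 gave 0.0378, and leaving out any other sample gave values from 0.0546 without normal replicate 3 to 0.189 without PVR replicate 1, above the threshold, with log2 fold changes from 0.80 to 1.07. Neither beta partner passed the test. ITGB1, the common beta subunit of many pairs, had 142, 157 and 158 normalised CPM in normal and 149, 136 and 165 in PVR retinas, with overlapping groups and a log2 fold change of -0.025 (SE 0.094, adjusted p = 0.893). This sign turned with scaling, to 0.0032 with upper-quartile factors. ITGB7, the beta subunit of gut-homing and tissue lymphocytes, had 5.59, 5.40 and 7.03 normalised CPM in normal and 5.14, 6.04 and 6.73 in PVR retinas, again with overlap.

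ITGB8 pairs with alpha V and is known for activating latent TGF-beta, including on glia and neural progenitors. Its level was 136, 168 and 147 normalised CPM in normal retinas and 220.5, 205 and 229 in PVR retinas. The groups did not overlap, and the gap of 205 against 168 between the nearest samples was wider than the range within either group. The log2 fold change was 0.54 (SE 0.10), with an adjusted p of 0.0504 from edgeR, just above the threshold. It was under 0.05 in 7 of the 15 other settings, among them DESeq2 (0.000301) and upper-quartile factors (0.0385), but not when a sample was dropped. ITGB3, the beta subunit of the vitronectin receptor and, with alpha IIb, of the platelet fibrinogen receptor, had 4.91, 6.51 and 5.35 normalised CPM in normal and 7.98, 8.18 and 9.14 in PVR retinas. These groups also did not overlap, at a log2 fold change of 0.59 (SE 0.18, adjusted p = 0.133). ITGB5, the beta subunit through which pigment epithelium takes up shed photoreceptor outer segments, had 207, 198 and 185 normalised CPM in normal and 161, 145 and 187 in PVR retinas. PVR replicate 3 overlapped the normal range, and the log2 fold change was -0.26 (SE 0.11, adjusted p = 0.222). ITGAV itself, with 145, 143 and 152 normalised CPM in normal and 149, 149 and 165 in PVR retinas, had a log2 fold change of 0.076 (SE 0.075, adjusted p = 0.588). ITGB6, another alpha V partner that activates TGF-beta, had 30, 4 and 2 counts in normal and 2, 7 and 7 in PVR retinas, so that only normal replicate 1 held more than a few reads.

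Some pigment epithelial markers fell in PVR in the same libraries. At an unadjusted p under 0.05, 4 of 7 tested markers were lower and 1 was higher, against 9.94% and 11.3% of all genes tested. Fitted values were above 0 for 2 of the 7. At an adjusted p under 0.05, 3 fell (LRAT, RLBP1 and TTR), against 0.615% of all genes tested. The summed level of the list was between 305.9 and 570.4 normalised CPM in normal retinas and between 184.7 and 217.2 in PVR retinas. RLBP1 is also made by Mueller glia. Of 8 Mueller glia markers, GLUL and RLBP1 fell at an adjusted p under 0.05 and none rose. At an unadjusted p under 0.05, 2 were lower and 1 was higher. Fitted values were above 0 for 4 of the 8, with a median log2 fold change of 0.027. None of these markers was at 0 in all libraries, and their part in the values of ITGB5 and ITGB8 was not tested.

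**Figure D3:**
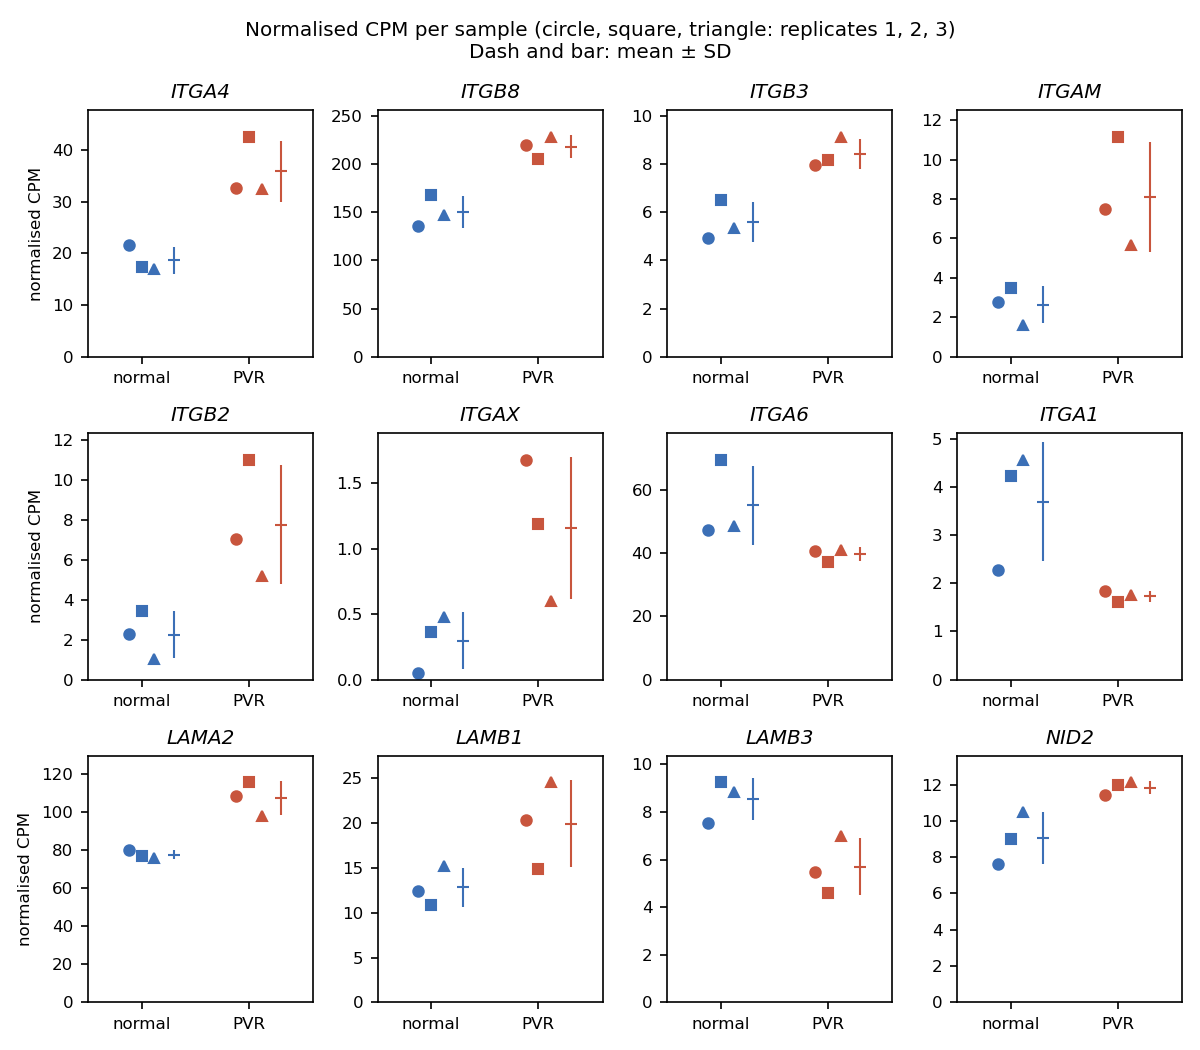
Normalised CPM per sample for 12 genes in the normal (blue) and PVR (red) groups, with the mean and SD (n = 3) beside the points and each axis starting at 0. The groups do not overlap for 11 of the genes, drawn from the 8 above and 4 below given in the text. This number thus follows from the choice of genes. Over all genes tested, PVR lay above normal for 13.4% and below for 14.6%. For LAMB1, PVR replicate 2 falls below normal replicate 3.

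The beta 2 integrins are receptors of leukocytes. ITGAM and ITGB2 form the complement receptor 3 of microglia, macrophages and neutrophils. ITGAM had 2.78, 3.47 and 1.63 normalised CPM in normal retinas and 7.49, 11.2 and 5.69 in PVR retinas. ITGB2 had 2.26, 3.45 and 1.05 in normal and 7.03, 11.0 and 5.21 in PVR retinas, and for both genes the groups did not overlap and PVR replicate 2 was the highest sample. The log2 fold changes were 1.62 (SE 0.36, adjusted p = 0.0735) for ITGAM and 1.78 (SE 0.46, adjusted p = 0.0995) for ITGB2, so that neither passed in edgeR although they had the largest fitted changes after ITGAX. Without normal replicate 2 they were 1.88 and 2.23. With DESeq2 the adjusted p was 0.000208 for ITGAM and 0.000865 for ITGB2, and in edgeR without PVR replicate 3 that of ITGAM was 0.0495. ITGAX, the alpha subunit of complement receptor 4 on dendritic cells and activated microglia, had 2, 14 and 19 counts in normal and 55, 40 and 26 in PVR retinas, with a log2 fold change of 1.94 (SE 0.74, adjusted p = 0.195). ITGAL, the alpha subunit of the lymphocyte receptor LFA-1, had 4.57, 4.50 and 4.48 normalised CPM in normal and 6.45, 7.20 and 3.75 in PVR retinas, and PVR replicate 3 lay below all normal samples. ITGAD, a further beta 2 partner, had 2, 10 and 3 counts in normal and 0, 1 and 0 in PVR retinas. ITGAM, ITGAX and ITGAD have similar sequences, so the low counts of ITGAX and ITGAD are uncertain where reads could be shared.

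Leukocyte markers had fitted values in the same direction. Of 16 listed markers, 15 were matched and tested, and none passed an adjusted p of 0.05 in edgeR. At an unadjusted p under 0.05, 7 were higher, against 11.3% of all genes tested. All 15 had fitted values above 0, with a median log2 fold change of 0.70. The summed level of the list was between 69.3 and 116 normalised CPM in normal retinas and between 129.9 and 170.6 in PVR retinas. PTPRC, the pan-leukocyte marker CD45, had 4.65, 4.19 and 1.10 normalised CPM in normal and 9.60, 16.0 and 4.74 in PVR retinas. No marker of this list was at 0 in every library. T cell markers were scarce, with a summed level of at most 1.61 normalised CPM in any library. The part of leukocyte number in the values of ITGA4, ITGAM, ITGB2 and ITGAX was not tested.

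**Figure D4:**
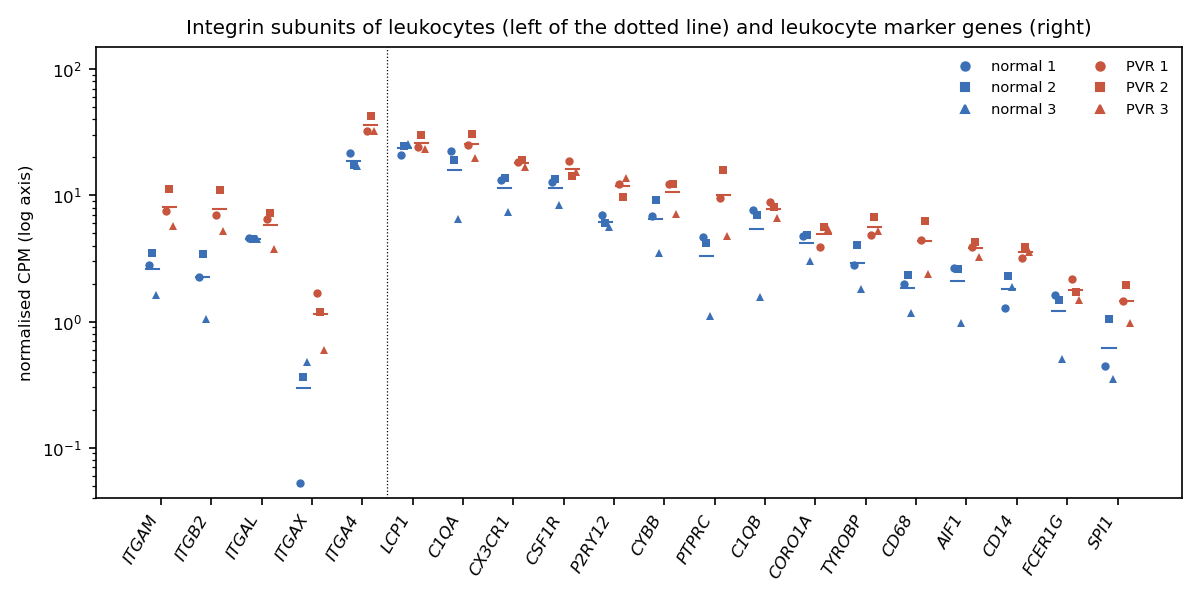
Normalised CPM on a log axis of 5 integrin subunits found on leukocytes (left of the dotted line) and of the 15 leukocyte markers (right), for the 3 normal (blue) and 3 PVR (red) samples, with dashes for group means. ITGAM and ITGB2 are highest in PVR replicate 2, and ITGA4 lies above ITGAM in each of the 6 samples.

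ITGA2B, the alpha subunit of the platelet fibrinogen receptor, was measured in a model that received platelets. It had 2.84, 3.06 and 2.38 normalised CPM in normal and 1.68, 1.73 and 2.33 in PVR retinas, with PVR below normal in all samples and a log2 fold change of -0.53 (SE 0.27, adjusted p = 0.3). Of 8 platelet markers, 6 were matched and 3 tested, and none passed. Their summed level was between 2.55 and 5.86 normalised CPM in normal and between 4.19 and 5.99 in PVR retinas, and TREML1 had no count in any library. ITGB3 and ITGA2B thus had fitted values of opposite sign.

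Collagen receptors differed from one another. ITGA1, found on vascular and mesenchymal cells, had 2.29, 4.24 and 4.58 normalised CPM in normal and 1.83, 1.61 and 1.75 in PVR retinas. The PVR samples lay close together below the normal samples, of which normal replicate 1 was the nearest. Its log2 fold change was -1.10 (SE 0.32, adjusted p = 0.122 from edgeR and 0.0386 from DESeq2). ITGA2, the most abundant collagen-binding subunit, had 24.9, 31.8 and 21.6 normalised CPM in normal and 31.6, 34.3 and 25.2 in PVR retinas, with overlap and a log2 fold change of 0.21 (SE 0.18). ITGA10, known from cartilage, had 2.71, 3.88 and 0.901 in normal and 0.764, 1.40 and 1.68 in PVR retinas, and normal replicate 3 lay within the PVR range. Its log2 fold change was -0.96 (SE 0.56), and -0.48 without normal replicate 2. ITGA11, a subunit of fibroblasts and myofibroblasts, had 35, 29 and 17 counts in normal and 16, 12 and 127 in PVR retinas. Its log2 fold change of 0.86 (SE 0.81) rested on PVR replicate 3 and was -0.72 without it.

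Some vascular markers also fell in these libraries. Of 11 endothelial markers tested, CDH5 and VWF fell at an adjusted p under 0.05, against 0.615% of all genes tested. At an unadjusted p under 0.05, 4 were lower and 1 was higher, against 9.94% and 11.3% of all genes tested. The median log2 fold change over the list was -1.29, and 3 of the 11 had fitted values above 0. The summed level of the list was nevertheless 609.4 to 663.6 normalised CPM in normal and 705.1 to 727.4 in PVR retinas. KDR and FLT1, receptors of VEGF, made up most of this sum, with 452, 438 and 347 normalised CPM for KDR in normal and 472, 447 and 469.7 in PVR retinas, and neither passed the test. VWF, which carries platelet adhesion, had 5.99, 15.9 and 23.8 normalised CPM in normal and 0.428, 0.387 and 0.576 in PVR retinas. Of 8 pericyte and smooth muscle markers, RGS5 alone fell at an adjusted p under 0.05. At an unadjusted p under 0.05, 1 was lower and 1 was higher. The summed level of these markers was 19.0 to 53.3 normalised CPM in normal and 16.9 to 37.3 in PVR retinas. No marker of either list was at 0 in all libraries. Whether fewer vessel cells took part in the value of ITGA1 was not tested.

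Of the laminin receptors, ITGA6 pairs with beta 1 or beta 4 and ITGA3 with beta 1. ITGA6 had 47.4, 69.7 and 48.6 normalised CPM in normal and 40.8, 37.1 and 41.2 in PVR retinas, with no overlap. The log2 fold change was -0.48 (SE 0.16, adjusted p = 0.152), and it was -0.27 without normal replicate 2, the sample with the most lens RNA, which had the highest value. ITGA3 had 11.6, 11.0 and 11.4 in normal and 13.9, 10.1 and 13.7 in PVR retinas, with overlap. ITGB4, the hemidesmosome subunit, had 4.52, 6.43 and 6.63 in normal and 3.91, 5.60 and 6.89 in PVR retinas, also with overlap. ITGA7, a laminin receptor of muscle that the files list by gene number and not by symbol, had 3, 14 and 6 counts in normal and 5, 2 and 44 in PVR retinas.

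ITGA5, ITGA8, ITGA9 and ITGAE, receptors of other ligands, were less abundant than ITGAV and ITGA4, with means of 0.789, 1.01, 0.676 and 0.755 FPKM. ITGA5, the alpha subunit of the classical fibronectin receptor, had 2.55, 3.19 and 2.55 normalised CPM in normal and 4.59, 4.79 and 3.18 in PVR retinas. PVR replicate 3 lay just below normal replicate 2, and the log2 fold change was 0.60 (SE 0.25, adjusted p = 0.234). ITGA8, a receptor for nephronectin, had a log2 fold change of -0.094 (SE 0.23), which was 0.13 without normal replicate 2. ITGA9, a receptor for tenascin C and VCAM1, had 1.13, 2.49 and 1.35 in normal and 0.734, 1.52 and 0.760 in PVR retinas, and ITGAE, the E-cadherin receptor of tissue lymphocytes, had 5.15, 5.92 and 4.25 and 5.04, 6.46 and 7.65. The groups overlapped for ITGA8, ITGA9 and ITGAE. The log2 fold change of ITGA9 was -0.73 (SE 0.46), and -0.30 without normal replicate 2.

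LAMA2 encodes the alpha 2 chain of merosin, the laminin that dystroglycan binds in muscle and nerve. Its level was 80.3, 76.8 and 76.0 normalised CPM in normal retinas and 108, 116 and 97.8 in PVR retinas. The normal samples lay within a narrow band, and every PVR sample was above it. LAMA2 rose with a log2 fold change of 0.47 (SE 0.082, adjusted p = 0.0457 from edgeR), and in FPKM from 7.48 ± 0.263 (SD, n = 3) to 10.8 ± 1.06 (SD, n = 3). The adjusted p was 0.0011 with DESeq2 and 0.0624 with limma-voom. It was 0.0247 without PVR replicate 3, and with any other sample left out it lay between 0.0608 without normal replicate 3 and 0.244 without PVR replicate 1, above the threshold. Its log2 fold change was then between 0.41 and 0.52.

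The other alpha chains did not pass the test. LAMA5, the chain of mature vessel and retinal membranes, had 10.5, 14.0 and 15.8 normalised CPM in normal and 21.1, 15.1 and 23.3 in PVR retinas, with PVR replicate 2 inside the normal range and a log2 fold change of 0.57 (SE 0.22, adjusted p = 0.198). LAMA1, the early embryonic chain that also occurs at the vitreal face of the retina and in the lens capsule, had 6.72, 19.0 and 11.7 in normal and 7.31, 7.80 and 6.01 in PVR retinas. Its log2 fold change of -0.82 (SE 0.35, adjusted p = 0.235) was -0.39 without normal replicate 2, the highest sample. LAMA4, the vascular chain, had 10.7, 8.05 and 12.7 in normal and 8.16, 8.87 and 11.1 in PVR retinas. LAMA3, the epithelial chain, had 1.26, 2.24 and 1.45 in normal and 1.80, 2.74 and 2.42 in PVR retinas. Both showed overlap. The log2 fold change of LAMA3 was 0.49 (SE 0.33), and 0.78 without normal replicate 2.

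The fitted changes of the beta chains differed in sign, and none passed the test. LAMB1, found in most vessel and early membranes, had 12.4, 10.9 and 15.2 normalised CPM in normal and 20.4, 14.9 and 24.6 in PVR retinas, with a log2 fold change of 0.63 (SE 0.22, adjusted p = 0.166 from edgeR and 0.0504 from DESeq2). LAMB2, the chain of synapses and of the retinal surface, had 38.0, 55.7 and 53.9 in normal and 67.3, 53.0 and 70.3 in PVR retinas, with a log2 fold change of 0.37 (SE 0.17, adjusted p = 0.26). For both genes PVR replicate 2 was the lowest PVR sample and overlapped the normal range. LAMB3, an epithelial chain, had 7.54, 9.23 and 8.83 in normal and 5.47, 4.61 and 6.98 in PVR retinas. All PVR samples were below the normal samples, at a log2 fold change of -0.58 (SE 0.21, adjusted p = 0.176).

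Of the gamma chains, LAMC1, the partner in most laminins, had 30.7, 45.6 and 48.6 normalised CPM in normal and 41.0, 35.2 and 41.9 in PVR retinas. The groups overlapped, and the log2 fold change was -0.08 (SE 0.18, adjusted p = 0.817). LAMC3, a chain of retinal and neural laminins, had 0.683, 1.26 and 2.58 in normal and 1.498, 2.89 and 0.898 in PVR retinas, and its log2 fold change of 0.22 (SE 0.59) became -0.34 without PVR replicate 2. Over the 15 laminin and other basement membrane genes tested, PVR replicate 2 was the lowest PVR sample in 9, among them LAMA5, LAMB1, LAMB2 and LAMC1, against 40.4% of all genes tested, and it was the highest PVR sample for LAMA1, LAMA2, LAMA3 and LAMC3. Of 6 fibroblast markers, none passed in edgeR. At an unadjusted p under 0.05, 3 were higher, against 11.3% of all genes tested, and none was lower. Their summed level was 81.6 to 106.9 normalised CPM in normal and 105.2 to 308.9 in PVR retinas, and no marker was at 0 in all libraries. The part of fibroblast-like cells in the laminin values was not tested.

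NID2, a nidogen that joins laminin to collagen IV, had 7.62, 9.002 and 10.5 normalised CPM in normal and 11.4, 11.99 and 12.1 in PVR retinas. The groups did not overlap, and the log2 fold change was 0.39 (SE 0.17, adjusted p = 0.232). NID1, its close relative, had 4.18, 14.5 and 7.36 in normal and 6.97, 5.68 and 6.15 in PVR retinas. Normal replicate 2 was the highest of all 6, and the log2 fold change of -0.47 (SE 0.41) became 0.12 without it. HSPG2, the large proteoglycan perlecan, had 12.2, 33.1 and 12.3 normalised CPM in normal and 22.5, 19.9 and 25.2 in PVR retinas. Normal replicate 2 again stood above the others, and the log2 fold change of 0.23 (SE 0.39, adjusted p = 0.754) was 0.89 without it, with an adjusted p of 0.102. LAMA1, ITGA6, NID1 and HSPG2 were thus among the 11 of the 41 genes that were highest in normal replicate 2. AGRN, ITGA2B and LAMB3 were also among these 11. PVR replicate 3 was the highest of the 6 samples for 12 of the 41 genes, and PVR replicate 2 for 9. Normal replicate 2 held the most lens RNA, whose part in the values of the 11 genes was not tested beyond leaving the library out.

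AGRN, a proteoglycan that binds laminin and dystroglycan, had 39.0, 42.2 and 38.2 normalised CPM in normal and 33.5, 30.5 and 39.1 in PVR retinas, with PVR replicate 3 inside the normal range. Its log2 fold change was -0.21 (SE 0.11, adjusted p = 0.327). DAG1, from which both chains of the laminin receptor dystroglycan are cut, had 108, 112 and 124 in normal and 108, 95.7 and 115 in PVR retinas. These groups overlapped, and the log2 fold change was -0.11 (SE 0.095, adjusted p = 0.546). Among 26 partners of dystroglycan and enzymes of its glycosylation, all tested, SGCZ rose and none fell at an adjusted p under 0.05, with a median log2 fold change of 0.070. SGCZ, zeta-sarcoglycan, a subunit of the complex that steadies dystroglycan in the membrane, had 6.78, 5.61 and 4.70 normalised CPM in normal and 20.8, 25.5 and 11.4 in PVR retinas, and a log2 fold change of 1.75 (SE 0.31, adjusted p = 0.0449 from edgeR). This call held under 6 of the 15 alternatives tried. At an unadjusted p under 0.05, 6 of the 26 were higher, against 11.3% of all genes tested, and 3 were lower, against 9.94%.

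As a share of its class in FPKM, which does not depend on the scaling between samples, ITGB8 was higher and ITGB5 lower in each PVR sample than in each normal sample. ITGB8 took 12.8%, 15.2% and 14.0% of beta subunit FPKM in normal retinas and 21.0%, 20.9% and 19.5% in PVR retinas. ITGB5 took 51.6%, 47.0% and 46.3% in normal and 40.2%, 39.0% and 42.0% in PVR retinas. ITGB1 had overlapping shares, 32.2%, 34.0% and 36.0% in normal and 33.9%, 33.2% and 33.7% in PVR retinas. The mean differences of ITGB5 and ITGB8, PVR minus normal, were -7.91 and 6.49 percentage points (two-sided exact permutation test, p = 0.1, the smallest that 3 samples against 3 allow, and 0.257 after Benjamini-Hochberg adjustment over the 36 shares compared). Shares of a class sum to 100%, so a higher share of one subunit lowers the others.

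Among alpha subunits, ITGA4 had shares of 9.83%, 6.95% and 7.90% in normal and 13.5%, 16.9% and 13.2% in PVR retinas. ITGA6 went from 22.0% ± 3.23 (SD, n = 3) to 14.8% ± 1.10 (SD, n = 3). ITGA4 was below ITGA6 in all normal samples and in PVR replicates 1 and 3, and above it in PVR replicate 2. Among laminin beta chains, LAMB3 took 16.5%, 15.5% and 14.5% in normal and 7.63%, 8.24% and 8.88% in PVR retinas, again with no overlap. LAMA2 took 68.9%, 61.4% and 60.4% of laminin alpha FPKM in normal and 71.7%, 74.4% and 66.5% in PVR retinas, where the ranges overlapped (two-sided exact permutation test, p = 0.2). LAMC1 made up at least 90.8% of gamma chain FPKM in each sample. Of the 36 shares, 14 showed no overlap between the groups, and the exact test could give none of them a p below 0.1. Shares were formed only within these classes, so no value over all genes stands beside this count. The shares of a class also depend on one another. Summed over the class, laminin alpha FPKM was 11.8 ± 0.578 (SD, n = 3) in normal and 15.3 ± 0.643 (SD, n = 3) in PVR retinas, and integrin alpha FPKM was 42.9 ± 2.38 (SD, n = 3) and 48.7 ± 1.55 (SD, n = 3), both without overlap. Divided by the TMM factors, a scaling chosen after the data were seen, the integrin alpha sums were 44.0 ± 3.39 (SD, n = 3) and 47.5 ± 1.03 (SD, n = 3) and overlapped, and the laminin alpha sums, 12.1 ± 0.507 (SD, n = 3) and 14.9 ± 0.412 (SD, n = 3), did not. The FPKM sums of the other classes overlapped between the groups. Integrin beta FPKM was 117 ± 1.30 (SD, n = 3) in normal and 122 ± 9.38 (SD, n = 3) in PVR retinas. Laminin beta FPKM was 12.6 ± 1.98 (SD, n = 3) and 16.3 ± 2.55 (SD, n = 3), and laminin gamma FPKM was 6.52 ± 1.64 (SD, n = 3) and 6.55 ± 0.330 (SD, n = 3).

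**Figure D5:**
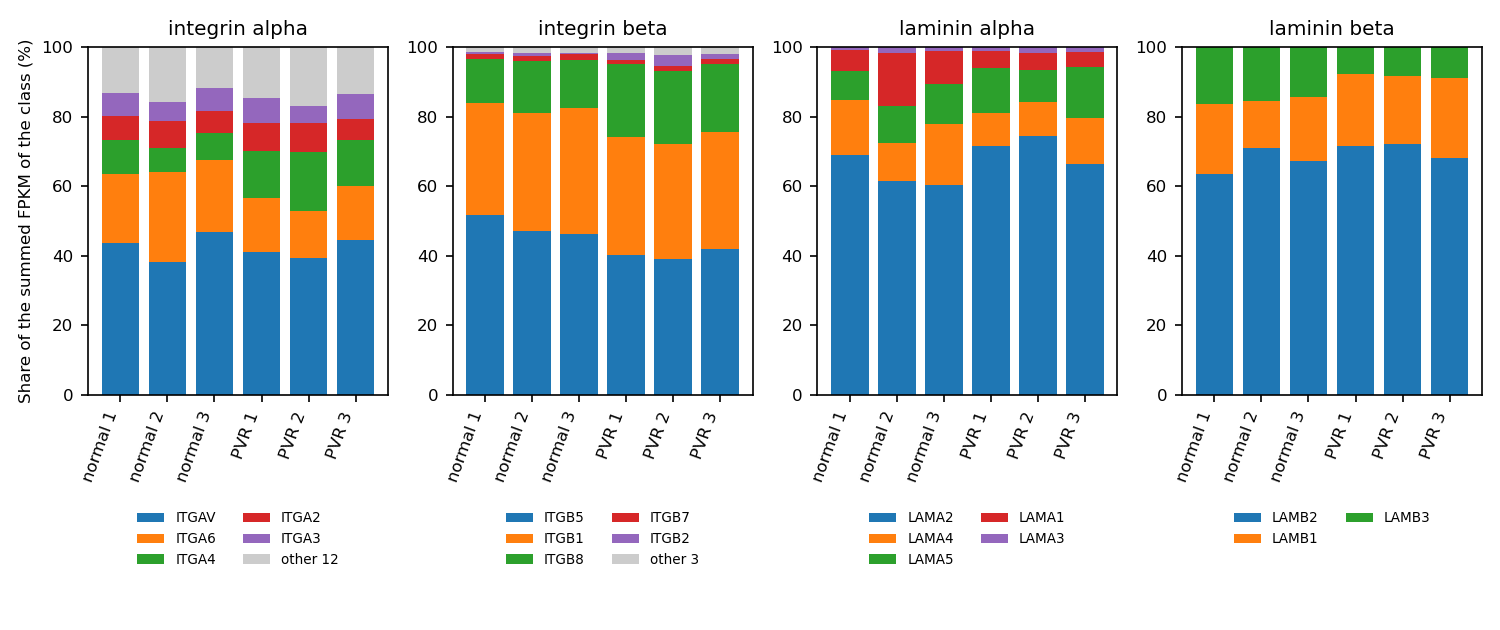
Share of each subunit in the summed FPKM of its class (vertical axis, percent) in each of the 6 samples for integrin alpha, integrin beta, laminin alpha and laminin beta, with the 5 most abundant subunits coloured and the rest in grey. The ITGB8 segment is taller in each PVR sample than in each normal sample, and the LAMB3 segment is shorter.

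Other genes of the pathway gave few calls. For comparison, 11.3% of all genes tested were higher and 9.94% were lower at an unadjusted p under 0.05. Of 29 collagens and further components of basement membranes, 27 were tested and none passed an adjusted p of 0.05 in edgeR, 3 were higher and 1 lower at an unadjusted p under 0.05, and the median log2 fold change was 0.20. Of 23 integrin ligands outside basement membranes, 20 were tested, VWF fell and none rose, and the median was 0.53. At an unadjusted p under 0.05, 5 of these were higher and 4 lower. The 3 ligand genes not tested were the fibrinogen genes FGA, FGB and FGG, each at 3 counts or fewer in every library. Of 33 integrin adaptors and signalling proteins, 31 were matched and 29 tested, none passed in edgeR, 5 were higher and 2 lower at an unadjusted p under 0.05, and the median was 0.068.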

How the data were processed

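Polyadenylated RNA of 3 normal and 3 PVR rabbit retinas was sequenced on a NovaSeq instrument. The library kit differs between the sources: the paper's methods name NEBNext Ultra II and the labels name VAHTS Universal V6. HISAT2 was used by the authors for alignment to the rabbit genome OryCun2.0 and htseq-count for reads per gene, and the submitters' processing notes also list fastp. The annotation release and the strand setting are not given in the sources used here. The authors deposited the raw counts and an FPKM value per gene, and counts divided by FPKM gave a single length for each gene (samples differed by at most 4.24e-09 of it), so both rest on the same reads.

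The analysis of counts used edgeR 4.0.16 under R 4.3.3 (TMM factors, default filter on low counts, quasi-likelihood test, condition as the single term), and p-values were adjusted by Benjamini-Hochberg over the 18697 genes tested. The standard error is the size of the log2 fold change divided by the square root of F. For shares of FPKM, an exact permutation test (two-sided) was run. List genes were matched by symbol or, through RefSeq's mOryCun1.1 gene numbers (names only, as it is not the build of the files), by gene number. Apart from ITGA7, genes described one by one are members of the rule or of the lists. List genes were named where their adjusted p was under 0.05 or they mark a cell type. FGA, FGB and FGG were named because they had too few counts to be tested. The members and lists were chosen with earlier results of these data known. Alternatives were DESeq2 1.42.0, limma 3.58.1 (voom, and log2(FPKM + 1) and log2(FPKM + 0.1)), RLE and upper-quartile factors, 2 other filters, the replicate number as a block, and leaving out single samples. The fits were first tested on simulated counts. There DESeq2 recovered more of the changed genes than edgeR or limma-voom and also made more false calls. Samples of 1 group differed by more than counting noise (chi-square per degree of freedom from 20.9 to 198), so none was merged. Samples were treated as unpaired in the main fit, and whether the replicate numbers pair them was not settled. Tables and figures were made with Python 3.11.15, pandas 2.3.3 and matplotlib 3.10.9. Some genes are not reported here.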

Additional observations from a re-analysis of the deposited data

How the results depend on the processing

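The number of these genes higher in PVR at an adjusted p under 0.05 was 2 in edgeR with all 6 samples. It was 5 with DESeq2, 1 with limma-voom, 1 with limma on log2(FPKM + 1) and 0 with a replicate block, and between 0 and 3 with single samples left out. No gene was lower, and the exception was DESeq2, with 1. The cause of these differences was not tested. ITGA4 and LAMA2, named in the report, lost the threshold in edgeR when any sample other than PVR replicate 3 was left out. The replicate block is given here only, because the deviations of same-numbered samples had low correlations (-0.013, 0.073 and 0.042). Of these samples, 2 normal and 1 PVR correlated best with their own number. With 3 samples a group, these values cannot exclude pairing. With the block in edgeR, the adjusted p was 0.0941 for ITGA4 and 0.0954 for LAMA2.

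Over the log2 fold changes of the 38 genes under 15 alternatives, 515 values kept their direction and side of the threshold, 16 lost the threshold, 11 gained it and 27 changed sign. The changes of sign concerned genes with adjusted p above 0.05. They were, on log2(FPKM + 0.1), ITGA8 (0.0055), ITGB1 (0.042), ITGB7 (0.058) and LAMC1 (0.014), and on log2(FPKM + 1), ITGB1 (0.041), ITGB7 (0.037) and LAMC1 (0.0094). With upper-quartile factors ITGB1 had 0.0032 and ITGB7 0.019, with limma-voom ITGB7 had 0.0042, and it had 0.0013 with a minimum of 10 counts in all samples. With single samples left out, the log2 fold change ranged from -0.0061 to 0.89 for HSPG2, from -0.72 to 1.30 for ITGA11, from -0.26 to 0.13 for ITGA8, from -0.10 to 0.041 for ITGB1, from -0.30 to 0.091 for ITGB4, from -0.11 to 0.13 for ITGB7, from -0.31 to 0.011 for LAMA4, from -0.25 to 0.053 for LAMC1, from -0.34 to 0.86 for LAMC3 and from -0.80 to 0.12 for NID1. Likewise, the difference of the ITGAV share ranged from -3.60 to 0.70 percentage points and that of the LAMC1 share from -2.70 to 0.098 percentage points. With FPKM divided by the TMM factors, an alternative chosen after seeing the data, the differences in summed FPKM of the integrin beta subunits and laminin gamma chains turned from 5.13 to -0.627 and from 0.0326 to -0.277. Depth limits ITGAD and ITGB6, which had too few counts for the default filter, and ITGAX and ITGA11 among those that passed it. Without the filter, edgeR gave log2 fold changes of -3.38 for ITGAD (adjusted p = 0.284) and -1.10 for ITGB6 (adjusted p = 0.626).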
